A study of Mus musculus with 9 samples.

Results

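Interferon-stimulated genes were followed in mouse ventral hippocampus, in bulk RNA from freshly taken tissue. The members are 33 genes chosen by name as targets of interferon signalling, among 53465 genes in the table. All 33 were found by their gene symbol, and 30 had a mean level of at least 0.5 FPKM over the 9 libraries, the level at which 17753 genes of the whole table were kept. FPKM is the number of fragments of a gene scaled to its length and to the depth of the library. The 3 members under that level were Ifi44, Oas2 and Rsad2, with means of 0.287, 0.317 and 0.403 FPKM. They enter no count below.

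The study set up 3 groups of 3 libraries, labelled CRS-NKAα1+/-, CRS-WT-DR5-12D and CRS-WT. The first carries the mark +/- after NKAα1, the second is wild type with DR5-12D, and the third is wild type alone. All 3 share the prefix CRS. What CRS and DR5-12D stand for is not written out in the labels, which also give no strain, age, sex or dose. Nor do they say that the libraries of a group came from separate animals, so a p-value here reflects only how far these samples scatter, and that scatter may be technical. In a piece of tissue, fewer cells of a type and less RNA per cell cannot be told apart.

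Interferons are secreted by cells that sense foreign or misplaced nucleic acid, and they bind receptors that switch on transcription factors, STAT2 and IRF9 among them. The complex these factors form binds the interferon-stimulated response element (ISRE) before its target genes, while factors switched on by interferon gamma bind the gamma-activated site (GAS). The target genes code for sensors of viral RNA, blocks to viral entry and translation, a ubiquitin-like tag and GTPases that attack intracellular microbes. In the brain, microglia, astrocytes, endothelium and blood-derived cells can all carry such a response.

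Several members hold ISRE letters close before their start. The windows of RefSeq on the build GRCm38.p6 reach from 250 bases before to 50 after a gene's start, and 26 of the 33 members have at least 1. No entry was matched for Parp9, Usp18, Dhx58, Oas2, Ifi27, Parp14 and Rtp4. The ISRE search used GAAANNGAAA and its reverse complement TTTCNNTTTC, and the GAS search used TTCNNNGAA, which reads alike on both strands. ISRE letters stood in the windows of 14 of 26 members, or 53.8%, against 3.99% of 27025 genes with a window. GAS letters stood in 7 of 26 members, or 26.9%, against 9.55% of genes. The following stretches hold matches before the start. They are shown for Ifit1, Gbp3 and Gbp7, which passed a test below, and for Irf1 as the GAS example. They are also shown for Ifit3, Isg15, Bst2 and Gbp2, which passed no test in the main fit on the FPKM scale. The ISRE letters of Ifitm3, the other member that passed, lie after its start and are not shown. Each runs from 20 bases before the first match to 20 after the last, on the strand of the gene, with the matches in capitals.
Ifit1: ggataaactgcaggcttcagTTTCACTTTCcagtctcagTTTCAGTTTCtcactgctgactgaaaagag
Ifit3: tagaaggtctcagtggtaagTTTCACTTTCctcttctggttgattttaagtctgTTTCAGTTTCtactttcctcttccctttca
Isg15: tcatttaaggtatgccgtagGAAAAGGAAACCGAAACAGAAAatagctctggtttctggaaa
Bst2: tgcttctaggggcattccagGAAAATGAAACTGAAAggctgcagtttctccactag
Gbp2: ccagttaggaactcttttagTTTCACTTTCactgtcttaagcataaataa
Gbp3: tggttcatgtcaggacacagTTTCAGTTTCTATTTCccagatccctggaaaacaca
Gbp7: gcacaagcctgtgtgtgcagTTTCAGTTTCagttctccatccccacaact
Irf1: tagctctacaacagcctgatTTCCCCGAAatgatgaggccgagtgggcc

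The Ifit1 stretch lies at chr19:34640765-34640833 on the plus strand and holds 2 ISRE matches, as does that of Ifit3 at chr19:34583353-34583436, also on the plus strand. In Isg15, at chr4:156200855-156200916 on the minus strand, 3 matches overlap in 1 run. In Bst2, at chr8:71537567-71537622 on the minus strand, 2 matches overlap, and the first also overlaps a GAS match whose other letters are not capitalised. The GBP stretches lie on the plus strand at chr3:142620584-142620633 for Gbp2, chr3:142559979-142560034 for Gbp3 and chr3:142530263-142530312 for Gbp7. The GAS match of Irf1 lies within chr11:53769904-53769952 on the plus strand. ISRE matches in Ddx58, Ifih1 and Eif2ak2 also lay after the start. A match is a description of letters and was not tested for binding.

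**Figure D1:**
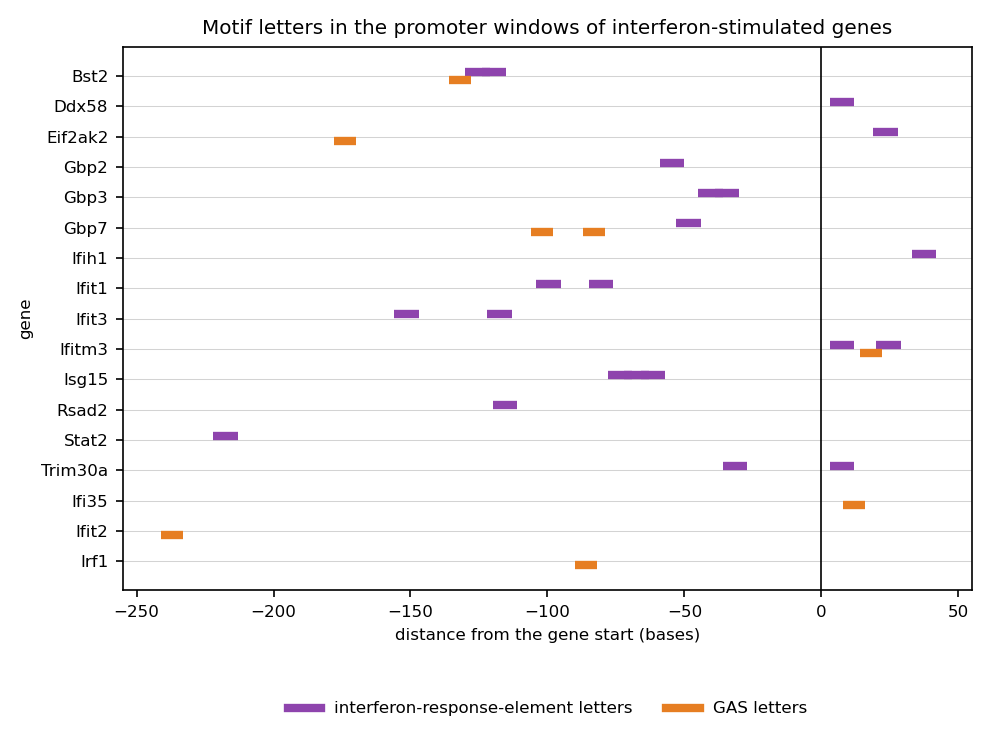
Positions of ISRE letters (purple, above each line) and GAS letters (orange, below) relative to the RefSeq start of each gene, in bases, for the members with at least 1 match. Matches in Ifit1, Ifit3, Isg15, Bst2 and the 3 Gbp genes lie before the start, and the line of Trim30a shows matches from 2 windows with different starts.

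Before the results, 3 libraries stood apart. Replicates 1 and 2 of CRS-NKAα1+/-, together with replicate 1 of CRS-WT-DR5-12D, were below the other 6 libraries in 4 of 6 markers of hippocampal neurons, Fibcd1, Zbtb20, Spink8 and Grik4. Fibcd1 stood at 1.86, 1.76 and 1.49 FPKM in these 3 against 20.8 to 29.2 FPKM in the other 6. Neurod6 overlapped, at 41.4 to 61.5 against 50.2 to 90.2 FPKM, and Wfs1 lay mostly the other way, at 25.0 to 43.9 against 10.5 to 25.2 FPKM. The dentate granule cell list of 8 genes summed to 16.8, 12.0 and 13.2 FPKM in the same 3 libraries and to between 52.4 and 85.5 FPKM in the others. The deposited values imply depths of 15117452 to 27323380 fragments per library.

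Across the 30 members, levels were ordered from the libraries labelled CRS-NKAα1+/- down to CRS-WT-DR5-12D, with CRS-WT between them. The mean over the members of log2(FPKM + 1) was 1.92, 2.85 and 2.21 in CRS-NKAα1+/- replicates 1 to 3. It was 1.34, 1.39 and 1.29 in CRS-WT-DR5-12D and 1.85, 1.73 and 1.62 in CRS-WT. The groups did not overlap in this mean, though CRS-NKAα1+/- replicate 1 lay only just above the highest CRS-WT library. The members' FPKM summed to 166, 482 and 237 in CRS-NKAα1+/-, to 72.6, 88.3 and 80.7 in CRS-WT-DR5-12D and to 165, 131 and 111 in CRS-WT. CRS-NKAα1+/- replicate 2 was the highest of all 9 libraries in 27 of the 30 members. Replicate 3 of that group was the highest in the other 3, Gbp2, Ifi27 and Irf1, which are named here because of these values.

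**Figure D2:**
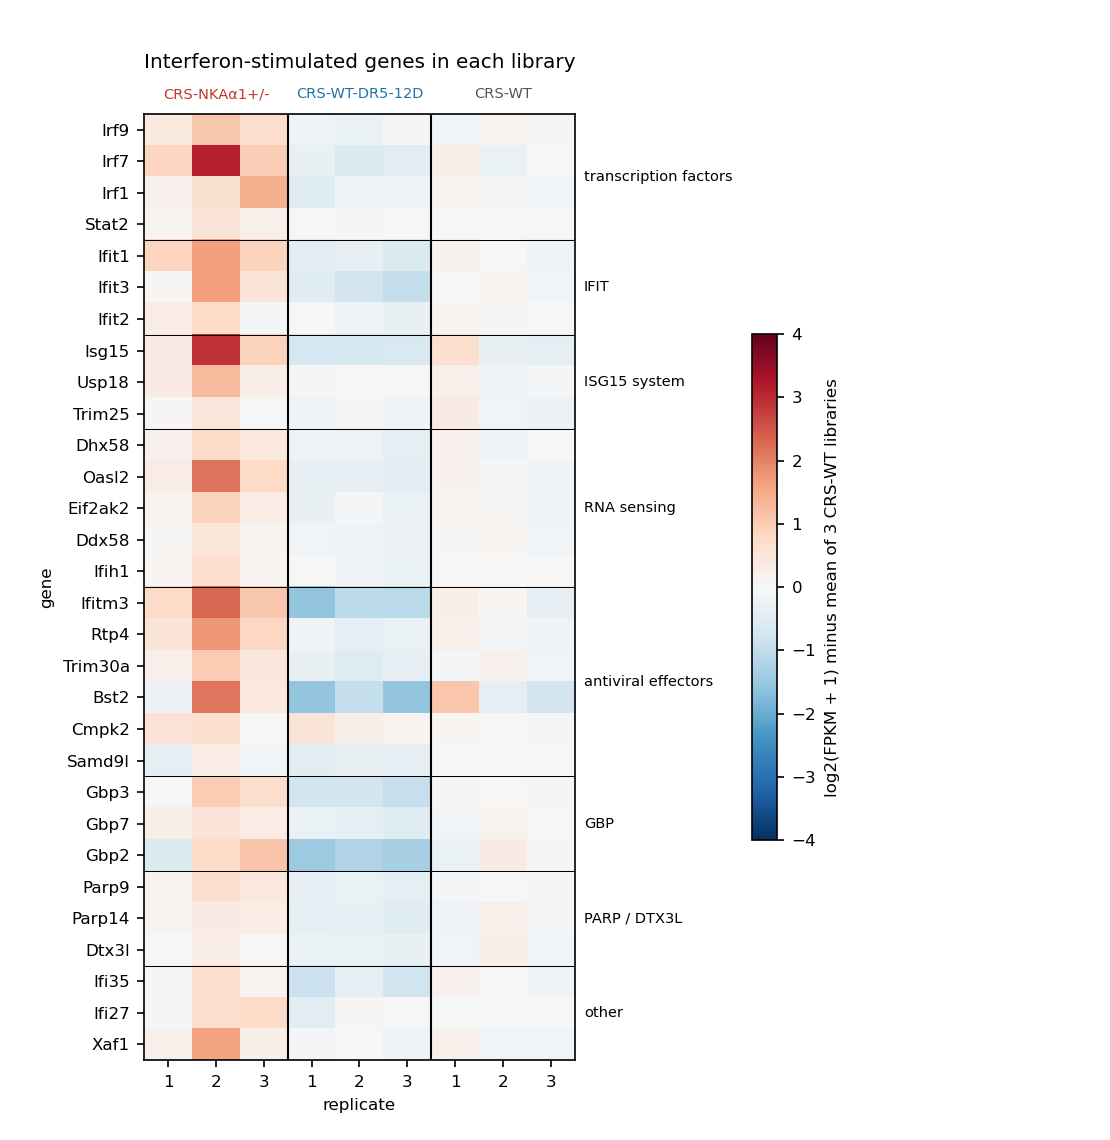
Each row is a member, grouped by role, and each column a library. Colour shows log2(FPKM + 1) minus the mean of the 3 CRS-WT libraries, red where higher and blue where lower. The column of CRS-NKAα1+/- replicate 2 is red throughout, and the CRS-WT-DR5-12D columns are blue in most rows, Cmpk2 being an exception.

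Set against CRS-WT, the libraries labelled CRS-NKAα1+/- had higher fitted levels in 29 of 30 members, but no member passed the test in the main fit on the FPKM scale. The limma test on log2(FPKM + 1), adjusted over 17753 genes, called 0 of the 30, where 0.0225% of all genes were called. The lowest adjusted p was 0.126, for Ifit1. At an unadjusted p under 0.05 there were 17 members, each of them higher, against 7.6% of all genes that were higher at that level. The median log2 fold change was 0.47 over the members and 0.0091 over all genes, and 51.9% of all genes were above 0. The level filter uses all 9 libraries, so a member can pass it through CRS-NKAα1+/- alone. Usp18 did, with means of 1.39 FPKM there, 0.469 FPKM in CRS-WT-DR5-12D and 0.487 FPKM in CRS-WT. With no filter on low values, 32 of 33 members were higher, with a median of 0.46. Every CRS-NKAα1+/- library lay above every CRS-WT library in 15 members, against 10.9% of all genes. Without CRS-NKAα1+/- replicate 2 the members' median was 0.29. After rescaling to TPM, which put the median of all genes at −0.42, the members' median was 0.22, 22 of 30 were higher and 2 were called, as were 7451 of all genes.

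Set against CRS-WT, the CRS-WT-DR5-12D libraries had lower fitted levels in 29 of 30 members, again with no member past the test in the main fit on the FPKM scale. limma called 0 of 30, against 0.0282% of all genes, with a lowest adjusted p of 0.201, for Gbp3. An unadjusted p under 0.05 was seen in 7 members, all of them lower, against 6.71% of all genes lower at that level. The median was −0.31 over the members and 0.0071 over all genes, of which 48.4% were below 0. In 18 members every CRS-WT-DR5-12D library lay below every CRS-WT library, against 11.4% of all genes. After rescaling to TPM the median was −0.70 over the members and −0.33 over all genes, all 30 were lower and 5 were called, as were 975 of all genes. Cmpk2, a mitochondrial nucleotide kinase, was the 1 member with no overlap in the other direction on the FPKM scale, as were 11.4% of all genes.

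Calls were made between the outer groups. In CRS-WT-DR5-12D against CRS-NKAα1+/-, all 30 members had lower fitted levels and 4 of them fell past the limma threshold, Ifit1, Ifitm3, Gbp3 and Gbp7, where 0.501% of all genes fell and 48.5% had a lower fitted level. An unadjusted p under 0.05 was reached by 26 members, against 5.5% of all genes that were lower at that level. The median was −0.75 over the members and 0.0065 over all genes. The groups did not overlap in 25 members, against 7.15% of all genes with every CRS-WT-DR5-12D library lower. The same CRS-NKAα1+/- and CRS-WT-DR5-12D libraries enter the earlier comparisons, so the 3 are not independent. The 4 calls were lost (0 members called) when any single CRS-WT or CRS-WT-DR5-12D library was left out. Without CRS-NKAα1+/- replicate 1, 12 members were called among 194 genes. Without replicate 2 there were 3 among 62 genes, and without replicate 3 there was 1 among 58. The 4 calls were also lost with no filter on low values and with only these 2 groups in the fit. An F-test for any difference among the 3 groups called 0 members, against 0.27% of all genes, and 21 members had an unadjusted p under 0.05, against 13.7%.

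**Figure D3:**
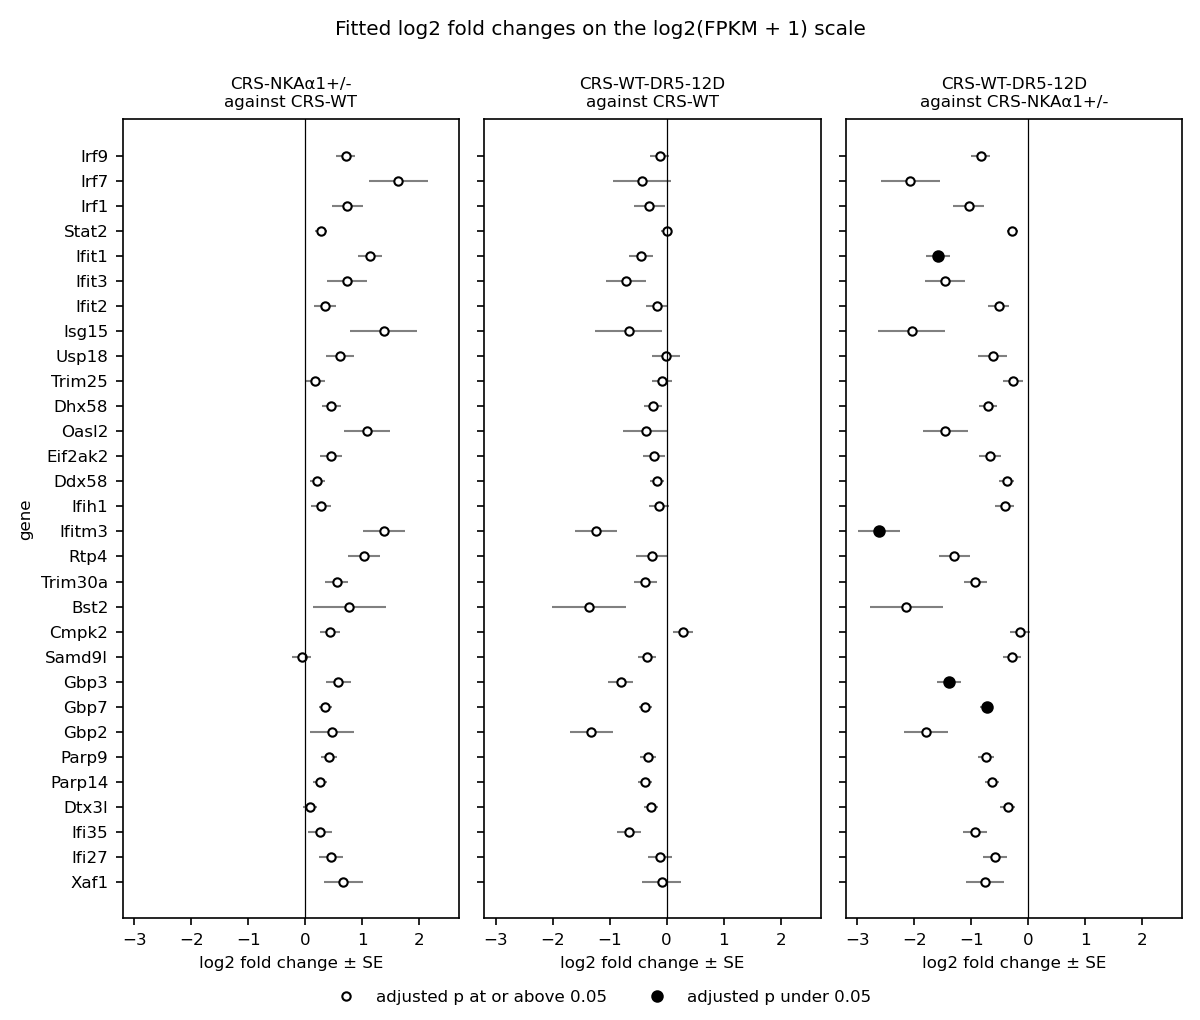
Fitted log2 fold change of each member with its standard error in the 3 comparisons, on the log2(FPKM + 1) scale with 3 libraries per group. Filled points are past the adjusted p threshold of 0.05 and occur only in CRS-WT-DR5-12D against CRS-NKAα1+/-, at Ifit1, Ifitm3, Gbp3 and Gbp7.

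Lists of markers of other cell types differed in their order over the groups. By the middle library of each group, the leukocyte lists and the microglial list had the members' order. So did a list for macrophages at the brain's borders, at 3.77, 2.52 and 2.51 FPKM in CRS-NKAα1+/-, CRS-WT and CRS-WT-DR5-12D. Only 1 of its 6 genes averaged at least 0.5 FPKM. The red blood cell and dentate granule cell lists had the opposite order. The astrocyte, neuron, oligodendrocyte, endothelial, hippocampal neuron and choroid plexus lists had neither. The neutrophil and monocyte list of 10 genes summed to 29.0, 194 and 85.3 FPKM in CRS-NKAα1+/- and to 1.79, 2.36 and 2.41 FPKM in CRS-WT-DR5-12D, against 14.8, 39.9 and 19.5 FPKM in CRS-WT. Most of it came from the calcium-binding proteins S100a8 and S100a9, CRS-NKAα1+/- overlapped CRS-WT, and Camp and Chil3 were at 0 in CRS-WT-DR5-12D replicates 2 and 3. The library highest in the members, CRS-NKAα1+/- replicate 2, was also the highest in this list. Its neutrophil receptor gene Cxcr2, named here because of this value, stood at 3.09 FPKM, against 0.0125 to 0.174 FPKM in the other 8 libraries. Not every gene of the list peaked in that library. Ngp, Plac8 and Ccr2 were highest in a CRS-WT library, and Camp was highest in CRS-NKAα1+/- replicate 3. The microglial list of 12 genes summed to 238, 314 and 246 FPKM in CRS-NKAα1+/- and to 192, 164 and 146 FPKM in CRS-WT-DR5-12D, against 234, 256 and 202 FPKM in CRS-WT. The lymphocyte list of 10 genes summed to between 1.24 and 6.69 FPKM in CRS-NKAα1+/-, 0.717 and 2.22 FPKM in CRS-WT-DR5-12D and 3.16 and 4.05 FPKM in CRS-WT, with 0 to 3 of its genes at 0 in a library.

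The red blood cell list of 5 genes summed to between 34.6 and 65.8 FPKM in CRS-NKAα1+/- and 150 and 277 FPKM in CRS-WT-DR5-12D, against 85.6 to 310.1 FPKM in CRS-WT. The oligodendrocyte list of 7 genes was lowest in CRS-NKAα1+/-, at 269.7 to 470.5 FPKM, with 464 to 878 FPKM in CRS-WT-DR5-12D and 610 to 836 FPKM in CRS-WT. The endothelial list of 11 genes summed to between 69.9 and 94.9 FPKM in CRS-NKAα1+/- and 55.2 and 72.4 FPKM in CRS-WT-DR5-12D, against 87.8 to 95.5 FPKM in CRS-WT. All 11 endothelial genes had a lower fitted level in CRS-WT-DR5-12D against CRS-WT, with a median of −0.32 and 0 calls, and 9 of 11 had one in CRS-NKAα1+/- against CRS-WT, where the members were higher. The part of red blood cells, oligodendrocytes and endothelium in the members' levels was not tested.

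With the neutrophil and monocyte level as a term in the fit, a choice made after seeing the data, the medians over the members were 0.17 and 0.081 for CRS-NKAα1+/- and for CRS-WT-DR5-12D, each against CRS-WT. For CRS-WT-DR5-12D against CRS-NKAα1+/- it was −0.097. No member was called in any of the 3, and 25 were higher in the first, 11 lower in the second and 17 lower in the third. The 4 called members kept their direction there, with log2 fold changes of −1.07 for Ifitm3, −0.83 for Ifit1, −0.45 for Gbp3 and −0.37 for Gbp7, each with a limma adjusted p of 0.999. With the microglial level as a term instead, the medians were 0.56, 0.062 and −0.59 in the same order, again with 0 calls, and 13 of 30 members were lower in CRS-WT-DR5-12D against CRS-WT. Both levels differ between the groups, so what such a term takes up and what the group takes up cannot be told apart. Without the 3 libraries low in hippocampal markers, the medians were 0.43, −0.32 and −0.73. That leaves 1 CRS-NKAα1+/- library, which is assumed to vary like the rest, so only the size of the change is given.

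**Figure D4:**
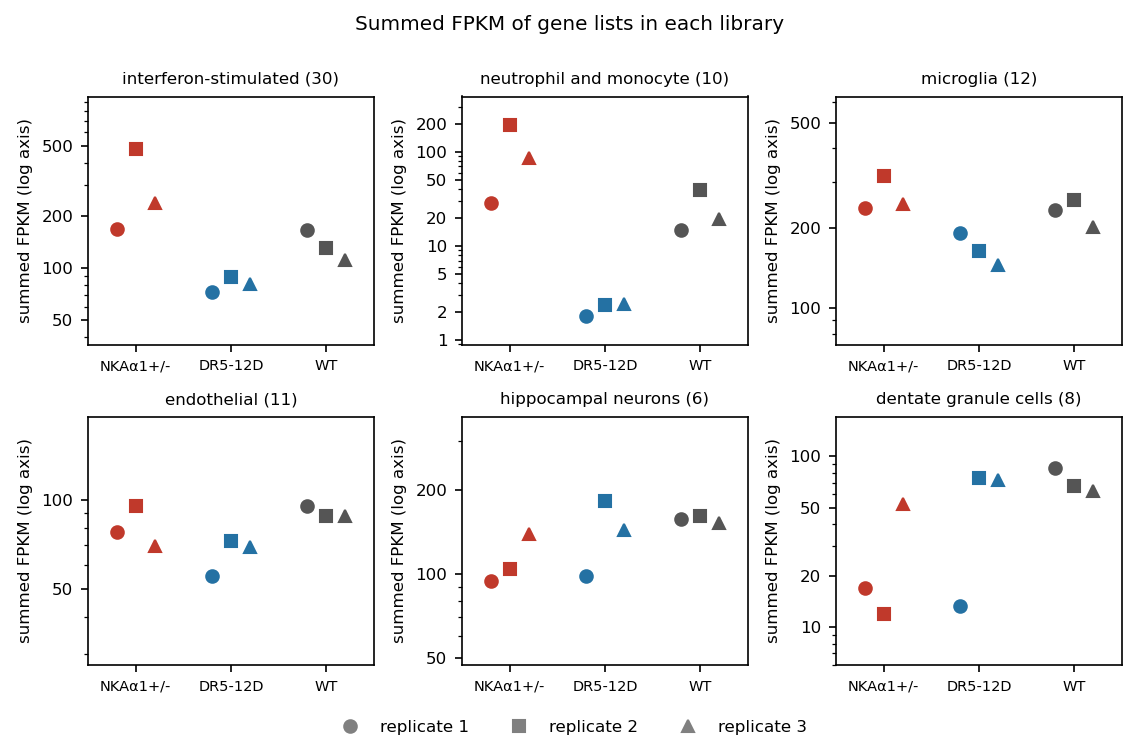
Summed FPKM of the 30 members and of 5 cell type lists in each library, on log axes, with the number of genes in brackets. The members and the neutrophil and monocyte list both peak in CRS-NKAα1+/- replicate 2 (482 and 194 FPKM) and are lowest in CRS-WT-DR5-12D, while the dentate granule cell list separates 3 libraries across 2 groups.

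The 4 transcription factors of the list, Irf1, Irf7, Irf9 and Stat2, had unadjusted p under 0.05 in CRS-NKAα1+/- against CRS-WT and in CRS-WT-DR5-12D against CRS-NKAα1+/-, and adjusted p at or above 0.05 in all 3 comparisons. Irf9, the DNA-binding subunit of the complex with STAT2, stood at 4.09, 7.16 and 5.21 FPKM in CRS-NKAα1+/- replicates 1 to 3 and at 2.46, 2.27 and 3.04 FPKM in CRS-WT-DR5-12D. In CRS-WT it stood at 2.6, 3.07 and 3.04 FPKM. All 3 CRS-NKAα1+/- libraries were thus above every other, and the other groups overlapped. Its log2 fold change was 0.71 ± 0.17 in CRS-NKAα1+/- against CRS-WT (SE, n = 3 each, limma adjusted p = 0.198) and −0.83 ± 0.17 in CRS-WT-DR5-12D against CRS-NKAα1+/- (adjusted p = 0.0915).

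Irf7, the factor that amplifies type I interferon production, had the widest range of these factors, 2.86 to 16.7 FPKM in CRS-NKAα1+/- and 0.418 to 0.738 FPKM in CRS-WT-DR5-12D, against 0.771 to 1.51 FPKM in CRS-WT. Its groups did not overlap, with a log2 fold change of 1.64 ± 0.51 in CRS-NKAα1+/- against CRS-WT (SE, n = 3 each, limma adjusted p = 0.287), and the upper value belongs to replicate 2. Irf1, which also answers interferon gamma, reached 4.08 to 11.1 FPKM in CRS-NKAα1+/- and 2.20 to 2.90 FPKM in CRS-WT-DR5-12D, against 3.19 to 3.99 FPKM in CRS-WT. Stat2 differed least, with log2 fold changes of 0.28 ± 0.10 in CRS-NKAα1+/- and −0.0020 ± 0.10 in CRS-WT-DR5-12D, each against CRS-WT.

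The IFIT proteins bind viral RNA that lacks host cap marks and hold back its translation. Ifit1, at chr19:34640871-34650009 on the plus strand (GENCODE vM21, GRCm38), stood at 3.08, 5.97 and 3.15 FPKM in CRS-NKAα1+/- and at 0.675, 0.773 and 0.485 FPKM in CRS-WT-DR5-12D. The CRS-WT libraries held 1.53, 1.27 and 0.937 FPKM. None of the 3 groups overlapped another. These values rest on 128, 359 and 219 fragments in CRS-NKAα1+/- and 47, 39 and 21 fragments in CRS-WT-DR5-12D, against 111, 51 and 54 in CRS-WT. Ifit1 fell by 1.58 on the log2 scale in CRS-WT-DR5-12D against CRS-NKAα1+/- (SE 0.21, n = 3 each, limma adjusted p = 0.0269), and it differed from CRS-WT by 1.14 ± 0.21 in CRS-NKAα1+/- (adjusted p = 0.126) and by −0.44 ± 0.21 in CRS-WT-DR5-12D (adjusted p = 0.409).

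Ifit3 ranged over 5.45 to 18.9 FPKM in CRS-NKAα1+/- and 2.28 to 3.50 FPKM in CRS-WT-DR5-12D, against 4.91 to 5.84 FPKM in CRS-WT. The CRS-WT-DR5-12D libraries were below all others, and CRS-NKAα1+/- overlapped CRS-WT. Ifit3 has a near copy, Ifit3b, so its level is uncertain where reads could be split between them. Ifit2 differed less, ranging over 1.91 to 4.16 FPKM in CRS-NKAα1+/- and 1.45 to 1.92 FPKM in CRS-WT-DR5-12D, against 1.84 to 2.20 FPKM in CRS-WT.

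The ISG15 system tags proteins with a ubiquitin-like modifier. Isg15, the modifier itself, stood at 6.25, 42.0 and 9.85 FPKM in CRS-NKAα1+/- and at 2.57, 2.58 and 2.76 FPKM in CRS-WT-DR5-12D. Its CRS-WT values were 8.08, 3.67 and 3.54 FPKM. The 3 CRS-WT-DR5-12D libraries lay close together below all others, and CRS-NKAα1+/- replicate 1 lay within the CRS-WT range. No comparison of Isg15 passed the test, the log2 fold change in CRS-WT-DR5-12D against CRS-NKAα1+/- being −2.05 ± 0.58 (SE, n = 3 each, limma adjusted p = 0.256). Usp18, which removes the tag and damps receptor signalling, ranged over 0.780 to 2.53 FPKM in CRS-NKAα1+/- and 0.410 to 0.505 FPKM in CRS-WT-DR5-12D, against 0.356 to 0.708 FPKM in CRS-WT. Trim25, a ubiquitin ligase that activates the RNA sensor RIG-I, overlapped among all groups, at 0.665 to 1.66 FPKM over the 9 libraries.

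Genes for RNA sensing had 5 members above the level kept, each with an unadjusted p under 0.05 in CRS-WT-DR5-12D against CRS-NKAα1+/- and none called. Dhx58, the regulatory sensor LGP2, stood at 0.937, 1.92 and 1.31 FPKM in CRS-NKAα1+/- and at 0.501, 0.499 and 0.337 FPKM in CRS-WT-DR5-12D. In CRS-WT it stood at 0.906, 0.526 and 0.719 FPKM. The 3 groups did not overlap, although the gaps next to CRS-WT were narrow, and the log2 fold change between the outer groups was −0.70 ± 0.16 (SE, n = 3 each, limma adjusted p = 0.136). Ddx58 and Ifih1, the sensors RIG-I and MDA5, had log2 fold changes of −0.38 ± 0.13 and −0.41 ± 0.17 in that comparison. Eif2ak2, the kinase PKR that stops translation, had −0.66 ± 0.19. Oasl2, of the oligoadenylate synthetase family, ranged widest, over 1.12 to 6.77 FPKM in CRS-NKAα1+/- and 0.279 to 0.377 FPKM in CRS-WT-DR5-12D, against 0.579 to 0.947 FPKM in CRS-WT, with no overlap.

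Among the antiviral effectors, Ifitm3 was the member with the largest call. It codes for a membrane protein that blocks fusion of viruses in endosomes, and lies at chr7:141009586-141010770 on the minus strand. Ifitm3 stood at 63.9, 188 and 80.4 FPKM in CRS-NKAα1+/- and at 11.8, 17.4 and 17.3 FPKM in CRS-WT-DR5-12D. CRS-WT libraries had 44.2, 39.7 and 29.8 FPKM, and the 3 groups were fully apart. It averaged 111 ± 67.4 FPKM in CRS-NKAα1+/- and 15.5 ± 3.22 FPKM in CRS-WT-DR5-12D, against 37.9 ± 7.36 FPKM in CRS-WT (SD, n = 3 each). It fell by 2.62 on the log2 scale in CRS-WT-DR5-12D against CRS-NKAα1+/- (SE 0.37, n = 3 each, limma adjusted p = 0.0298). Against CRS-WT it differed by 1.38 ± 0.37 in CRS-NKAα1+/- (adjusted p = 0.240) and by −1.24 ± 0.37 in CRS-WT-DR5-12D (adjusted p = 0.228).

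Bst2, or tetherin, which holds budding viruses at the cell surface, ranged over 14.2 to 79.1 FPKM in CRS-NKAα1+/- and 5.07 to 8.34 FPKM in CRS-WT-DR5-12D, against 9.80 to 37.8 FPKM in CRS-WT. The CRS-WT-DR5-12D libraries were below all others, while CRS-WT replicate 1 lay above 2 of the 3 CRS-NKAα1+/- libraries. Rtp4 and Trim30a had log2 fold changes of −1.29 ± 0.28 and −0.93 ± 0.20 in CRS-WT-DR5-12D against CRS-NKAα1+/- (SE, n = 3 each, limma adjusted p = 0.114 and 0.116). Rtp4 shares 13.9% of its exon bases with Gm45338, and Trim30a belongs to a family of near copies. Cmpk2 and Samd9l went against the rest of the effectors in 1 comparison each. Cmpk2 ranged over 3.84 to 6.63 FPKM in CRS-NKAα1+/- and 4.15 to 5.82 FPKM in CRS-WT-DR5-12D, against 3.51 to 4.01 FPKM in CRS-WT. Samd9l, a restriction factor of poxviruses, ranged over 0.459 to 1.37 FPKM in CRS-NKAα1+/- and 0.436 to 0.563 FPKM in CRS-WT-DR5-12D, against 0.865 to 0.943 FPKM in CRS-WT, with a log2 fold change of −0.061 ± 0.16 in CRS-NKAα1+/- against CRS-WT.

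**Figure D5:**
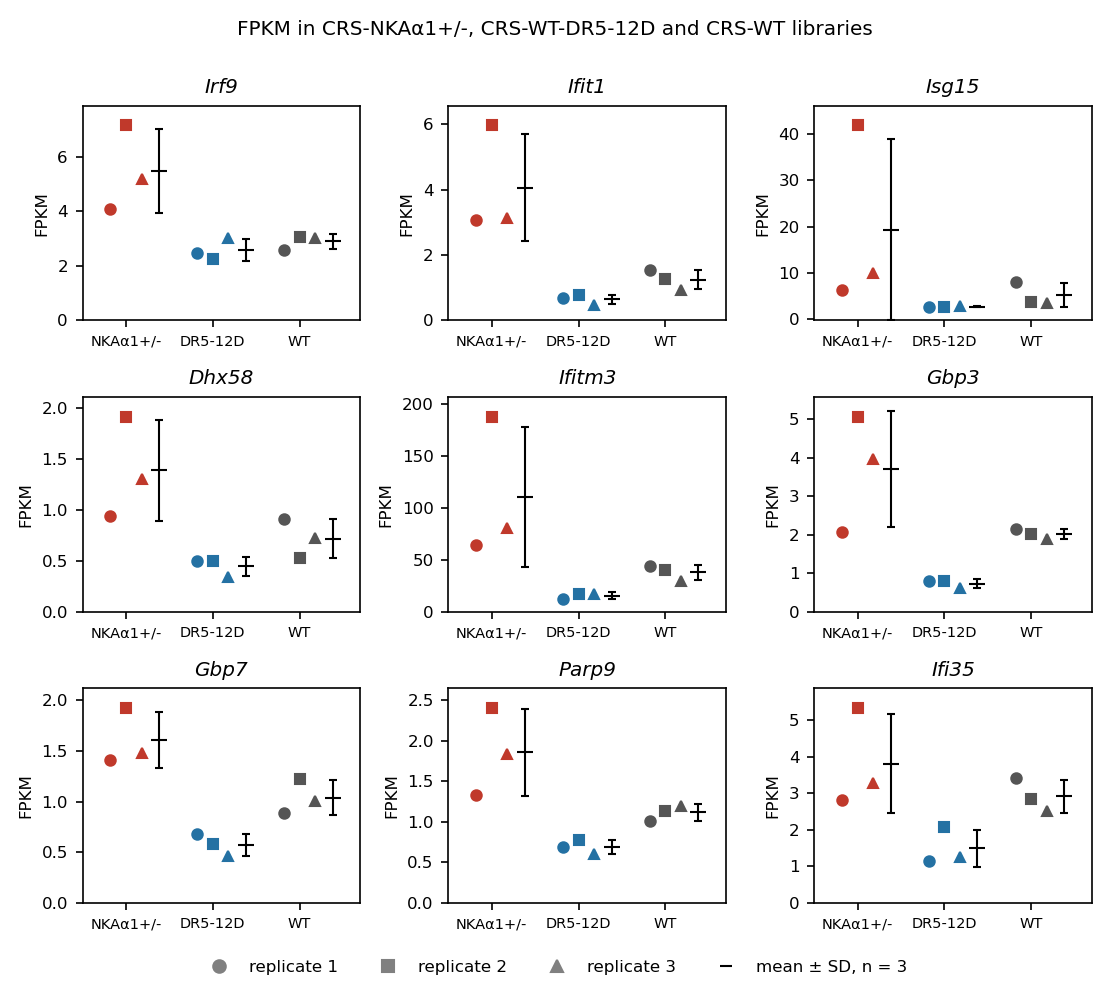
FPKM of 9 members in each library on linear axes, with the mean ± SD of 3 libraries beside the points; the lower bar of Isg15 in CRS-NKAα1+/- reaches below 0. In each of the 9 the highest point is CRS-NKAα1+/- replicate 2, with Ifitm3 at 188 and Isg15 at 42.0 FPKM, and the CRS-WT-DR5-12D points sit lowest, except in Irf9, where they overlap CRS-WT.

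The guanylate-binding proteins are GTPases that gather on the membranes of intracellular microbes, and they are targets of interferon gamma as well as of type I interferon. Gbp3, at chr3:142560026-142573209 on the plus strand, stood at 2.07, 5.07 and 3.96 FPKM in CRS-NKAα1+/- and at 0.794, 0.790 and 0.601 FPKM in CRS-WT-DR5-12D. Values in CRS-WT were 2.14, 2.03 and 1.89 FPKM. The CRS-WT-DR5-12D libraries were below all others, and CRS-NKAα1+/- replicate 1 lay within the CRS-WT range. Gbp3 fell by 1.39 on the log2 scale in CRS-WT-DR5-12D against CRS-NKAα1+/- (SE 0.22, n = 3 each, limma adjusted p = 0.0416), and it differed by −0.81 ± 0.22 from CRS-WT (adjusted p = 0.201).

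Gbp7, at chr3:142530342-142550149 on the plus strand, stood at 1.41, 1.93 and 1.48 FPKM in CRS-NKAα1+/- and at 0.679, 0.582 and 0.459 FPKM in CRS-WT-DR5-12D. In CRS-WT it stood at 0.887, 1.23 and 1.0 FPKM. None of the 3 groups overlapped another. Gbp7 fell by 0.73 on the log2 scale in CRS-WT-DR5-12D against CRS-NKAα1+/- (SE 0.12, n = 3 each, limma adjusted p = 0.0423). It shares 11.3% of its exon bases with Gm43802, and the Gbp genes of the cluster on chromosome 3 resemble one another, so reads may be split between them. Gbp2 ranged over 2.36 to 9.82 FPKM in CRS-NKAα1+/- and 0.788 to 1.11 FPKM in CRS-WT-DR5-12D, against 3.08 to 5.10 FPKM in CRS-WT, with a log2 fold change of −1.32 ± 0.38 in CRS-WT-DR5-12D against CRS-WT (SE, n = 3 each, limma adjusted p = 0.222).

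Parp9 and Dtx3l code for a poly-ADP-ribose polymerase family protein and its ubiquitin ligase partner, and Parp14 for a larger member of the family. Parp9 stood at 1.34, 2.41 and 1.83 FPKM in CRS-NKAα1+/- and at 0.689, 0.778 and 0.604 FPKM in CRS-WT-DR5-12D. The CRS-WT levels were 1.01, 1.14 and 1.2 FPKM, and no group overlapped another. Its log2 fold change in CRS-WT-DR5-12D against CRS-NKAα1+/- was −0.74 ± 0.14 (SE, n = 3 each, limma adjusted p = 0.0734), with −0.64 ± 0.12 for Parp14 and −0.36 ± 0.13 for Dtx3l. Parp9 and Dtx3l lie on opposite strands and share 9.40% and 8.0% of their exon bases with each other, and since the use of strand in counting is not given, reads of that stretch cannot be told apart.

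Of the remaining members, Ifi35, which codes for a leucine zipper protein, stood at 2.81, 5.34 and 3.27 FPKM in CRS-NKAα1+/- and at 1.15, 2.07 and 1.24 FPKM in CRS-WT-DR5-12D. The CRS-WT libraries held 3.41, 2.83 and 2.51 FPKM. The CRS-WT-DR5-12D libraries were below all others and the other groups overlapped, with a log2 fold change of −0.93 ± 0.21 in CRS-WT-DR5-12D against CRS-NKAα1+/- (SE, n = 3 each, limma adjusted p = 0.134). Ifi35 shares 16.8% of its exon bases with Gm11626 on the opposite strand. Xaf1, a promoter of apoptosis, reached 5.21 FPKM in CRS-NKAα1+/- replicate 2 and lay between 0.772 and 1.39 FPKM in the other 8 libraries. Ifi27, a mitochondrial protein, ranged over 23.9 to 43.1 FPKM in CRS-NKAα1+/- and 18.4 to 25.8 FPKM in CRS-WT-DR5-12D, against 24.3 to 25.3 FPKM in CRS-WT.

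Interferon genes themselves were near the lower limit of detection. Of 9 listed ligand genes, 5 (Ifnb1, Ifna1, Ifna4, Ifnl2 and Ifnl3) had 0 fragments in all 9 libraries, where 3 fragments in a library would correspond to between 0.146 and 0.354 FPKM. The other 4 had 8 fragments in all, with a highest level of 0.0923 FPKM. Their level at this depth cannot be compared between groups.

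Most of the remaining genes of the pathway had fitted levels in the same order as the members. From a list of 112 such genes, 77 passed the level filter, and of these 61 had a higher fitted level in CRS-NKAα1+/- against CRS-WT, 67 had a lower one when CRS-WT-DR5-12D was set against CRS-WT, and 70 when it was set against CRS-NKAα1+/-. The shares of all genes in these directions were 51.9%, 48.4% and 48.5%, and 16, 10 and 7 of the 77 lay the other way. The medians were 0.25, −0.32 and −0.52 in that order, and limma called 0, 0 and 10 of the 77, the 10 all lower, where 0.501% of all genes fell. Here too a gene can pass the level filter through CRS-NKAα1+/- alone, which bears on these counts. Oas1b did, at 0.345 to 2.17 FPKM there against 0.199 to 0.393 FPKM in CRS-WT and 0.132 to 0.215 FPKM in CRS-WT-DR5-12D. Zbp1 did too, at 0.760 to 2.44 FPKM against 0.225 to 0.523 and 0.0324 to 0.174 FPKM in the same order. So did Tgtp2, at 0.457 to 1.59 FPKM against 0.392 to 0.563 and 0.161 to 0.230 FPKM, with a mean under 0.5 FPKM in CRS-WT. The 5 receptor genes kept had a median of −0.18 in CRS-WT-DR5-12D against CRS-NKAα1+/- and the 5 signalling genes −0.35, with 0 calls in either. Of 13 sensor genes 2 fell there, Tmem173, the DNA-sensing adaptor STING, by 1.02 ± 0.11 on the log2 scale (SE, limma adjusted p = 0.0173), and Myd88, the adaptor of Toll-like receptors, by 0.71 ± 0.09 (adjusted p = 0.0269). Tmem173 stood at 4.61, 5.16 and 4.76 FPKM in CRS-NKAα1+/- and 1.91, 1.76 and 2.0 FPKM in CRS-WT-DR5-12D, against 4.05, 3.71 and 2.76 FPKM in CRS-WT. Socs3, a feedback inhibitor of JAK kinases, fell by 2.21 ± 0.33 (adjusted p = 0.0375).

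The other 7 called genes of the pathway were interferon targets outside the member list, all lower in CRS-WT-DR5-12D against CRS-NKAα1+/- with limma adjusted p between 0.0324 and 0.0447. Ifi27l2a fell by 2.75 ± 0.45 on the log2 scale, Lgals3bp by 2.24 ± 0.35, Slfn2 by 1.97 ± 0.28 and Ifitm1, a relative of Ifitm3, by 1.93 ± 0.29. Igtp, an immunity-related GTPase, fell by 1.55 ± 0.25, Ifi204, of a family of DNA sensors, by 1.24 ± 0.18 and Epsti1 by 1.15 ± 0.18. Ifi27l2a stood at 13.1, 57.6 and 30.4 FPKM in CRS-NKAα1+/- and 4.20, 3.18 and 2.91 FPKM in CRS-WT-DR5-12D, against 8.54, 4.71 and 6.57 FPKM in CRS-WT. The neutrophil and monocyte list given above has its levels in the same order as these genes.

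Members with ISRE letters in a window and members without were set side by side as a description. In CRS-WT-DR5-12D against CRS-NKAα1+/- the median log2 fold change was −1.39 over 13 members with the letters, −0.76 over 11 with a window that lacks them and −0.67 over 6 with no window. Their ranges overlapped, from −2.62 to −0.28, −2.07 to −0.14 and −1.29 to −0.58. In CRS-NKAα1+/- against CRS-WT the medians were 0.55, 0.43 and 0.46. Irf7, with −2.07 between the outer groups, has a window without these letters, and Rtp4, with −1.29, has no window. Rsad2, which holds the letters, was below the level kept.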

How the data were processed

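The authors deposited 1 table of FPKM with 9 library columns, each matched by its name. Per the submitters' processing notes, cutadapt, HISAT2 and RSEM 1.2.30 were used with GRCm38. Which annotation release was used, and whether counting used strand, is not given in the sources used here. Per the labels' protocols, total RNA was extracted with TRIzol and library fragments were selected by size.

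For 16215 of the 17753 genes tested, FPKM equalled whole fragments (within 0.02) divided by the merged exon length of GENCODE vM21 and by 1 number per library, which gave the depths. Another 1534 genes were whole at another length, and 4 were not recovered. Values were fitted as log2(FPKM + 1), with a pseudocount of 1, by limma 3.58.1 (R 4.3.3, statmod 1.5.0). The main fit was a single model of all 9 libraries with 3 groups and a mean-variance trend. Tests were two-sided, with Benjamini-Hochberg adjustment over all genes averaging at least 0.5 FPKM, and a gene was called where the adjusted p was under 0.05. Fold changes are on the log2(FPKM + 1) scale, which understates the change of low genes. Some gene levels are not reported here. Tables were made in Python 3.11.15 (pandas 2.3.3, numpy 2.4.6) and plots in matplotlib 3.10.9.

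The members and gene lists were chosen with earlier results of these data known. Values of every library are given for the member with the smallest F-test p in each role group and for every called member, and of the other pathway genes the 10 with the smallest p and any called were named. Oas1b, Zbp1 and Tgtp2 were named for the level filter. Alternatives covered the pseudocount, the filter, the scaling, a replicate block, marker covariates, library weights, 2-group fits, voom on the recovered fragments and leaving out libraries.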

Additional observations from a re-analysis of the deposited data

How the results depend on the processing

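For single members, 1865 recomputed values kept their direction and side of the threshold, 53 lost a call, 27 gained one and 80 changed sign, 35 of these with the neutrophil and monocyte term. These counts include the fit without the 3 libraries low in hippocampal markers, which leaves 1 CRS-NKAα1+/- library. Whether the replicate numbers pair the samples cannot be told here. Same-numbered libraries of CRS-WT-DR5-12D and CRS-NKAα1+/- correlated at 0.45, −0.35 and 0.50 in their deviations. CRS-WT-DR5-12D replicate 1 correlated with CRS-NKAα1+/- replicates 2 and 3 at 0.51 and −0.72. Those values follow the split by hippocampal markers, which would hide any pairing. Same-numbered values in the comparisons with CRS-WT lay between −0.080 and 0.039. With a replicate block, the comparison of CRS-WT-DR5-12D against CRS-NKAα1+/- had 2 members called in place of 4, among 40 genes in place of 91. The other comparisons had 0 members called, and the F-test 7 genes in place of 48. The cause of the changes that follow was not tested, except that fewer libraries or fewer genes enter some fits by construction.

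In CRS-NKAα1+/- against CRS-WT, 2 members among 7451 genes were called after rescaling to TPM (Irf7 and Ifit1). With library weights 1 was called (Ifit1), among 104 genes. The median was 0.17 in place of 0.47 with the neutrophil and monocyte term, and 0.43 without the 3 libraries low in hippocampal markers. TPM put the median of all genes at −0.42 in that comparison, at −0.33 when CRS-WT-DR5-12D was set against CRS-WT and at 0.10 when it was set against CRS-NKAα1+/-, and 22, 30 and 30 members kept the direction given above. In CRS-WT-DR5-12D against CRS-WT, TPM called 5 members among 975 genes, with a median of −0.70, and a fit of 2 groups only called 2 members among 41 genes. A median of −0.69 came from voom on recovered fragments, without the added 1. There the median turned to 0.062 with the microglial term (13 members lower) and to 0.081 with the neutrophil and monocyte term (11 lower).

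In CRS-WT-DR5-12D against CRS-NKAα1+/-, 0 members were called with no filter on low values, with the microglial term, with the neutrophil and monocyte term (median −0.097, 17 lower) and with 2 groups only. With a minimum of 2 FPKM 2 of 15 were called (median −1.29), among 78 genes, and 2 with the dentate term, among 92 genes. A pseudocount of 0.1 gave a median of −1.29 and voom −1.39. The adjusted p over the alternatives lay between 0.0171 and 0.999 for Ifit1, 0.0153 and 0.999 for Ifitm3, 0.00257 and 0.999 for Gbp3 and 0.0287 and 0.999 for Gbp7, the upper values being those with the neutrophil and monocyte term. The F-test called 100 genes with a pseudocount of 0.1, 6 with no filter, 1751 after TPM, 0 with either the microglial or the neutrophil and monocyte term, 86 without the 3 libraries and 210 with weights.

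Leaving out 1 library at a time, the F-test called 1 to 151 genes. Members called ranged over 0 to 12 in CRS-WT-DR5-12D against CRS-NKAα1+/- and stayed at 0 in both comparisons with CRS-WT. The medians ranged over 0.29 to 0.72, −0.34 to −0.29 and −0.94 to −0.62 for CRS-NKAα1+/- and CRS-WT-DR5-12D, each against CRS-WT, and for the comparison between them. Members in the direction given above numbered 28 to 30, 26 to 29 and 30. Values that changed sign ranged, in CRS-NKAα1+/- against CRS-WT, over −0.0099 to 0.20 for Dtx3l and −0.25 to 0.10 for Samd9l. In CRS-WT-DR5-12D against CRS-WT they ranged over −0.21 to 0.023 for Ifi27, −0.017 to 0.018 for Stat2, −0.20 to 0.082 for Trim25, −0.073 to 0.094 for Usp18 and −0.15 to 0.016 for Xaf1.

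Other log2 fold changes of members that changed sign were these. None was called, leaving aside the fit without the 3 libraries, for which only sizes are given. In CRS-NKAα1+/- against CRS-WT, TPM gave −0.029 for Ddx58, −0.14 for Stat2, −0.096 for Trim25, −0.12 for Ifi35, −0.011 for Ifi27, −0.26 for Dtx3l and −0.00033 for Ifit2. Leaving out the 3 libraries gave −0.0094 for Dtx3l and −0.040 for Ifit2, and weights gave 0.030 for Samd9l. In CRS-WT-DR5-12D against CRS-WT, Usp18 came to 0.039 with quantile normalization, 0.019 without the 3 libraries and 0.042 with weights, Cmpk2 to −0.017 with TPM, and Ifi27 to 0.043 with the dentate term and 0.023 without the 3 libraries. The microglial term gave there 0.24 for Ifih1, 0.14 for Ddx58, 0.45 for Isg15, 0.45 for Oasl2, 0.37 for Usp18, 0.050 for Trim30a, 0.46 for Irf7, 0.13 for Stat2 and 0.0035 for Irf9. It gave 0.58 for Xaf1, 0.22 for Trim25, 0.37 for Rtp4, 0.19 for Eif2ak2, 0.18 for Ifit2, 0.13 for Ifit3 and 0.074 for Ifit1. In CRS-WT-DR5-12D against CRS-NKAα1+/-, Cmpk2 came to 0.037 with the dentate term, 0.10 with the microglial term and 0.16 without the 3 libraries. The neutrophil and monocyte term gave, in CRS-NKAα1+/- against CRS-WT, −0.20 for Gbp2, −0.095 for Bst2, −0.032 for Ifi35 and −0.11 for Dtx3l. In CRS-WT-DR5-12D against CRS-WT it gave 0.18 for Ifih1, 0.091 for Ddx58, 0.59 for Isg15, 0.62 for Oasl2, 0.023 for Samd9l, 0.44 for Usp18, 0.14 for Trim30a, 0.64 for Irf7 and 0.22 for Stat2. There it also gave 0.28 for Irf9, 0.61 for Xaf1, 0.070 for Trim25, 0.0026 for Dhx58, 0.28 for Ifi27, 0.39 for Rtp4, 0.24 for Eif2ak2, 0.056 for Ifit2 and 0.20 for Ifit3. In CRS-WT-DR5-12D against CRS-NKAα1+/- it gave 0.14 for Ifih1, 0.082 for Ddx58, 0.17 for Isg15, 0.29 for Oasl2, 0.36 for Samd9l, 0.17 for Usp18 and 0.11 for Stat2. Also there, it gave 0.48 for Xaf1, 0.014 for Trim25, 0.13 for Ifi27, 0.074 for Dtx3l, 0.14 for Eif2ak2 and 0.16 for Ifit3. Low fragment counts, 15 at the lowest for a member in a library, limit the precision of the least expressed genes.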
